A study of Homo sapiens with 9 samples.

Results

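The genes described here are 8 genes of hyaluronan biology in MDA-MB-231 cells, taken by name from the 60664 genes counted: the receptors *CD44* and *HMMR*, the synthases *HAS2* and *HAS3*, and the degrading or depolymerizing proteins *HYAL2*, *HYAL3*, *CEMIP* and *CEMIP2*. All 8 were among the 18264 genes with enough counts to be tested. MDA-MB-231 is a human breast cancer line of mesenchymal character that lacks oestrogen receptor. RNA was sequenced from 3 groups of 3 samples each, all taken on day 6. SC cells carried a scramble control RNA and were kept at 0.77 cP or at 8 cP, and shTRPV4 cells, which carried a short hairpin RNA against the ion channel *TRPV4*, were kept at 8 cP. The methods describe the hairpin lines as stable lentiviral transductants selected with puromycin. They name methylcellulose as a thickener of the medium, with dextran and polyvinylpyrrolidone as alternatives. Which of these the RNA samples received is not stated, so both 8 cP groups also contained a polymer that is not named. One hairpin line stood for the knockdown. The viscosity comparison sets 8 cP against 0.77 cP in SC cells and asks what elevated viscosity did to RNA levels. The knockdown comparison sets shTRPV4 cells against SC cells, both at 8 cP, and asks what loss of *TRPV4* did at the elevated viscosity. A combined comparison sets shTRPV4 cells at 8 cP against the SC group at 0.77 cP and so differs in both. Log2 fold changes are given with their standard error (SE) and the FDR, the adjusted p of edgeR's quasi-likelihood test over all genes tested, with 0.05 as the threshold.

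Hyaluronan is a long unsulfated glycosaminoglycan of the pericellular coat and matrix. HAS enzymes in the plasma membrane polymerize it from UDP-glucuronic acid and UDP-N-acetylglucosamine and extrude it, CD44 is its main cell surface receptor and links it to the cortical cytoskeleton through ezrin, radixin and moesin, and hyaluronidases and the CEMIP proteins take part in shortening its chains. HMMR, also called RHAMM, binds hyaluronan and in dividing cells associates with the mitotic spindle. MDA-MB-231 cells are known as a line rich in CD44.

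The hairpin left few *TRPV4* reads. The counts of *TRPV4* were 40, 28 and 54 in the SC group at 0.77 cP, 64, 45 and 24 in the SC group at 8 cP, and 7, 1 and 13 with the hairpin. The shTRPV4 samples lay below all SC samples, with a knockdown log2 fold change of -2.51 (SE 0.49, edgeR FDR = 0.00219). Samples held between 64571681 and 103518036 counts. All 7 markers of the line (*VIM*, *KRT7*, *KRT8*, *KRT18*, *CAV1*, *AXL* and *EGFR*) were tested. *VIM* stood between 754 and 1063 CPM (counts scaled to library size) in the 9 samples. It fell with viscosity (edgeR FDR = 0.0095) and again with the knockdown (edgeR FDR = 0.000193). *ESR1* and *PGR*, the hormone receptors of luminal cells, had at most 4 counts in any sample. Of the other luminal markers, *CDH1* had at most 12 counts. *EPCAM* and *ERBB2* were expressed, at group means of 18.1 to 19.0 and 93.2 to 95.5 CPM.

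Sequences around a RefSeq transcript start are shown for 4 members on which the results turn: *CD44*, the most abundant, the gene pair *CEMIP* and *CEMIP2*, which differed in opposite directions with the knockdown, and *HYAL2*, which differed with it too. Each runs 5′ to 3′ on the strand of its gene from 200 bases before the RefSeq transcript start to 25 bases after it (GRCh38.p14). They lie at chr11:35138971-35139195 on the plus strand for *CD44*, chr15:80779170-80779394 on the plus strand for *CEMIP*, chr9:71768489-71768713 on the minus strand for *CEMIP2* and chr3:50322721-50322945 on the minus strand for *HYAL2*. By the GENCODE gene spans given with each member, the stretches of *CD44* and *CEMIP2* lie wholly inside the gene, since other annotated transcripts start further upstream, and those of *CEMIP* and *HYAL2* cross its 5′ end. Capitals mark a TATA box (TATAAA) or a TEAD motif (GGAATG).
CD44 promoter: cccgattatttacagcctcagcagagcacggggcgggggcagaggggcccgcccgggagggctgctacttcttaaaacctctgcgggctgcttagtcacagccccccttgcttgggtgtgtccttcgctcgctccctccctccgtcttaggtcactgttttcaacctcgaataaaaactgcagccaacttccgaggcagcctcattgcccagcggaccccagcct
CEMIP promoter: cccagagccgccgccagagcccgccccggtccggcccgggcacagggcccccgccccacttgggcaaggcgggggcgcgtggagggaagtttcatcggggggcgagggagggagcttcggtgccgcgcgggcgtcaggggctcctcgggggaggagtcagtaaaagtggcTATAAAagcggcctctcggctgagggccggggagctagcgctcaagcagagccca
CEMIP2 promoter: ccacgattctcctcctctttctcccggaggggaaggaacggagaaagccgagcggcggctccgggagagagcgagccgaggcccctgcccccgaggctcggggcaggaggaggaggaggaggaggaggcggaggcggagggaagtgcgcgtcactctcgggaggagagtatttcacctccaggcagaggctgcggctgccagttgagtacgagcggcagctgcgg
HYAL2 promoter: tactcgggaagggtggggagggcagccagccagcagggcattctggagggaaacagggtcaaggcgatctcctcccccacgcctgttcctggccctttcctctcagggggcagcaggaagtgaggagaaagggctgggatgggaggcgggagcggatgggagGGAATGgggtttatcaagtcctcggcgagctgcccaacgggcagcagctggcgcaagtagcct

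RefSeq promoters of 300 bases (250 before and 50 after the start) were found for 7 members, *HAS2* having none in the table used, and *HYAL3* had 2. They were searched on both strands for an AP-1 motif (TGANTCA), the TEAD motif and the TATA box, and no matches overlapped. *CEMIP* held a TATA box whose first base was at -30, and none of the other members did, against 11.5% of 35116 RefSeq promoters. TEAD motifs began at -38 in *HYAL2*, at -220 and -42 in *HMMR*, and at -194 in 1 of the 2 *HYAL3* promoters, against 14.0% of all promoters. The AP-1 motif, in 7.71% of promoters, was in none of them. *CD44*, *CEMIP2* and *HAS3* had no match to any of the 3 motifs. GC content was 63.3% for *CD44*, 73.0% for *CEMIP*, 70.7% for *CEMIP2* and 65.0% for *HYAL2*. No binding was measured, and a match of letters is not a bound site.

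Per exon length, *CD44* and *CEMIP* were far above the other 6 members in every sample. Levels between genes are given as reads per kilobase of exon, scaled by library size (RPKM), from the TMM-scaled CPM and the exon length of GENCODE release 44. Over the 9 samples *CD44* averaged 83.3 RPKM, above 97.3% of 18227 genes, and *CEMIP* averaged 46.9 RPKM, above 94.8%. Next came *HYAL2* at 6.42 RPKM (above 67.7% of genes), *HMMR* at 5.78 RPKM (65.8%), *CEMIP2* at 3.63 RPKM (57.2%) and *HAS2* at 3.12 RPKM (54.5%). The lowest were *HYAL3* at 1.78 RPKM (45.9%) and *HAS3* at 0.705 RPKM (34.4%). Neighbours in this order were not always apart. *HYAL2* and *HMMR* stood at 6.20 ± 0.18 and 6.12 ± 0.57 RPKM (SD, n = 3) in SC cells at 8 cP, a difference inside their spread. *CEMIP2* and *HAS2* stood at 4.16 ± 0.28 and 3.62 ± 0.48 RPKM (SD, n = 3) in the same group with overlapping samples, and in shTRPV4 cells their order turned, with *CEMIP2* at 2.70 ± 0.17 and *HAS2* at 3.01 ± 0.064 RPKM (SD, n = 3). *HAS2* was the more abundant synthase in all 9 samples, at between 3.09 and 6.02 times the RPKM of *HAS3*.

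**Figure D1:**
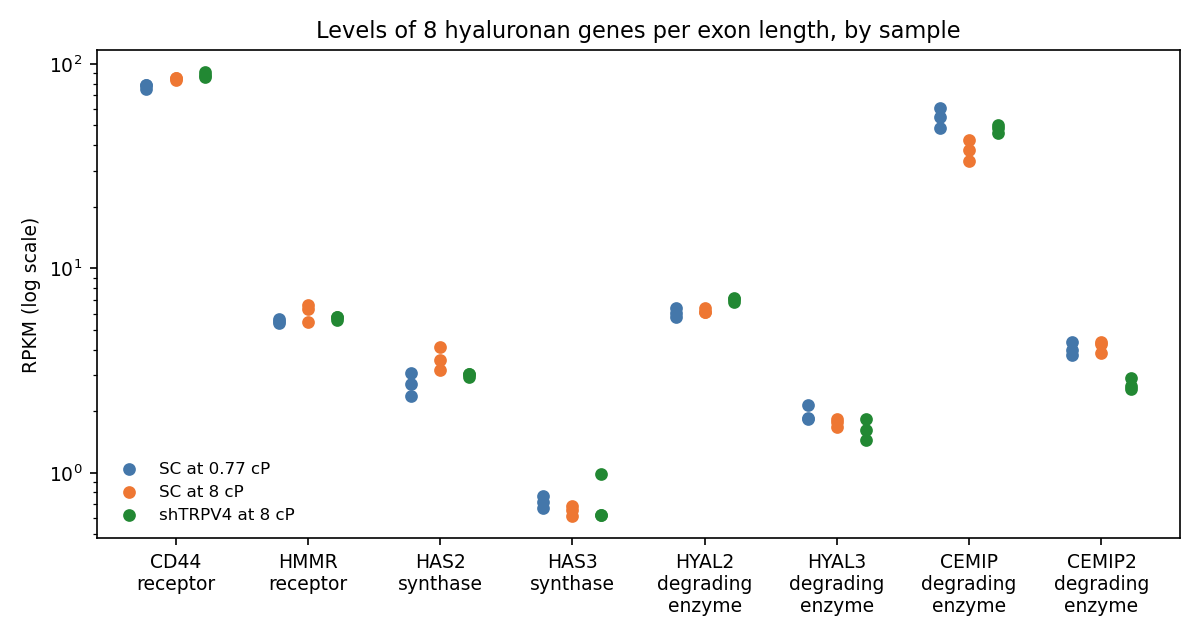
RPKM (log axis) of the 8 genes in each of the 9 samples, 1 point per sample, coloured by group. *CD44* and *CEMIP* lie above every other member in all samples, and *HAS3* is the lowest.

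In each comparison 2 or 3 of the 8 members differed, and the largest differences were below 1 on the log2 scale. At an FDR below 0.05, 2 of 8 members differed in the viscosity comparison, where 19.3% of all 18264 genes did (9.57% higher and 9.69% lower at 8 cP). *HAS2* was higher and *CEMIP* lower. In the knockdown comparison 3 of 8 members differed, against 20.0% of all genes (9.02% higher and 11.0% lower in shTRPV4 cells). *HYAL2* and *CEMIP* were higher and *CEMIP2* was lower. In the combined comparison 3 of 8 members differed, against 42.4% of all genes (20.4% higher and 22.0% lower), with *CD44* and *HYAL2* higher and *CEMIP2* lower. The members' shares were thus 25%, 37.5% and 37.5%, and with only 8 genes nothing particular to the set is read from them. The median log2 fold change of the 8 was 0.039, -0.017 and 0.052 in the 3 comparisons, beside -0.0065, 0.00064 and -0.011 over all genes tested.

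**Figure D2:**
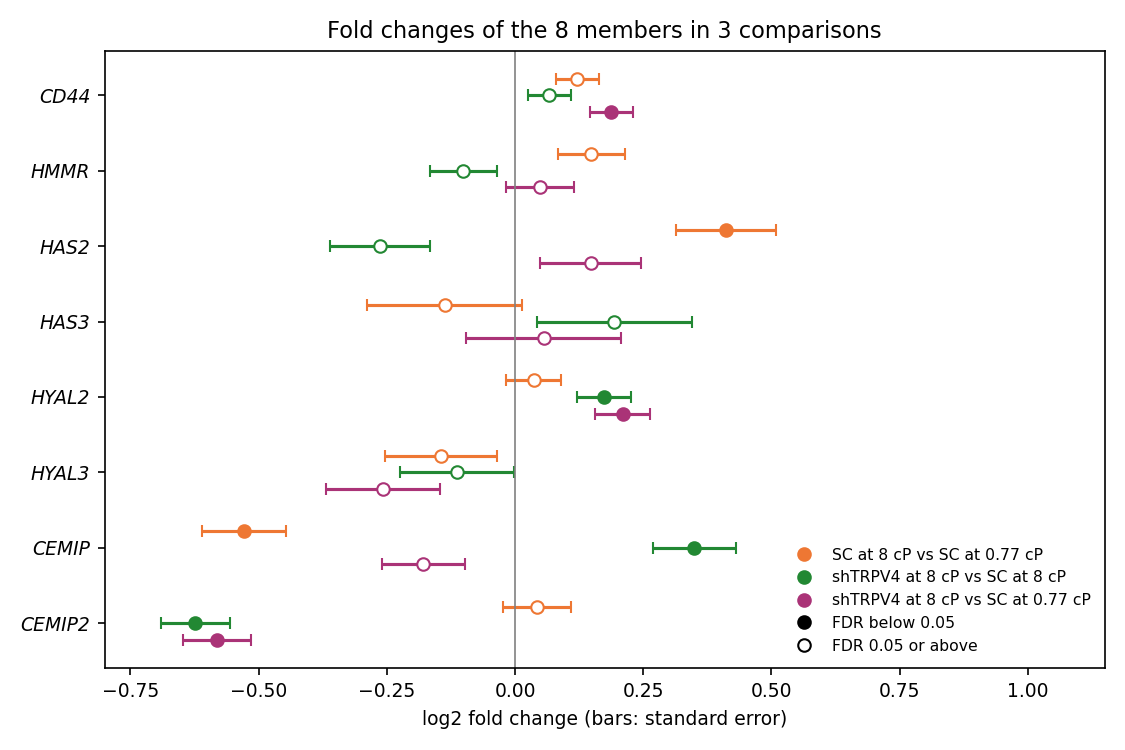
Log2 fold change of each member (points) with its standard error (bars) in 3 comparisons, each coloured separately, with filled points at an FDR below 0.05. *CEMIP* and *CEMIP2* lie farthest from 0, and *CEMIP* is on opposite sides of 0 in the first and second comparison, which share the SC samples at 8 cP.

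*CD44* was slightly higher in each step of the 3 conditions, and the single steps did not pass the threshold. It (ENSG00000026508, chromosome 11, 35138882 to 35232402, plus strand, GRCh38) had 754, 786 and 783 CPM in SC cells at 0.77 cP, 848, 828 and 849 CPM in SC cells at 8 cP, and 906, 859.8 and 879 CPM in shTRPV4 cells at 8 cP. No sample of one group overlapped with another group, and the groups averaged 774 ± 17.6, 842 ± 11.9 and 882 ± 23.5 CPM (SD, n = 3). Its log2 fold change with viscosity was 0.12 (SE 0.042, edgeR FDR = 0.0546). With the knockdown it was 0.07 (SE 0.042, edgeR FDR = 0.298). In the combined comparison it was 0.19, a rise of 13.9% (SE 0.042, edgeR FDR = 0.00201). The first of these is a close call: over 15 alternative fits the adjusted p ranged from 0.0157 to 0.159 and passed the threshold in 4. *CD44* is known for alternatively spliced exons, which gene counts do not resolve, and it is among the genes that the study itself displayed from these samples. In RNA from whole cultures, more cells with a transcript and more transcript per cell cannot be told apart, here and below.

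*HMMR*, the other receptor, did not pass the threshold in any comparison. It (ENSG00000072571, chromosome 5, 163460203 to 163491941, plus strand) had 21.2, 21.6 and 22.3 CPM in SC cells at 0.77 cP, 21.5, 24.7 and 25.9 CPM in SC cells at 8 cP, and 21.8, 22.8 and 22.7 CPM in shTRPV4 cells at 8 cP. Replicate 1 of the SC cells at 8 cP lay among the samples at 0.77 cP and the other 2 lay above them all. The viscosity log2 fold change was 0.15 (SE 0.066, edgeR FDR = 0.126), and without that replicate it was 0.23 (edgeR FDR = 0.0253). With the knockdown it was -0.10 (SE 0.066, edgeR FDR = 0.316), and in the combined comparison 0.05 (SE 0.066, edgeR FDR = 0.595).

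*HAS2*, the inducible synthase of long chains, rose with viscosity in SC cells. It (ENSG00000170961, chromosome 8, 121612116 to 121641440, minus strand) had 10.1, 11.5 and 12.96 CPM in SC cells at 0.77 cP, 13.5, 15.0 and 17.5 CPM in SC cells at 8 cP, and 12.9, 12.9 and 12.5 CPM in shTRPV4 cells at 8 cP. The SC samples at 8 cP all lay above those at 0.77 cP, the lowest of the former by little, and the shTRPV4 samples lay below them and among those at 0.77 cP. Means were 11.5 ± 1.43, 15.3 ± 2.04 and 12.8 ± 0.271 CPM (SD, n = 3). This was a log2 fold change of 0.41, a rise of 33.0% (SE 0.098, edgeR FDR = 0.0097). That call was lost without replicate 1 of the SC cells at 0.77 cP or without replicate 3 of the SC cells at 8 cP, with log2 fold changes down to 0.31 and adjusted p up to 0.0626. With the knockdown it was -0.26 (SE 0.097, edgeR FDR = 0.0695), with an adjusted p of 0.011 to 0.296 over 15 alternative fits, 6 of them past the threshold. The combined comparison gave 0.15 (SE 0.099, edgeR FDR = 0.251). The antisense RNA *HAS2-AS1*, which shares 251 exon bases with *HAS2* on the other strand, had 64 to 100 counts and no log2 fold change larger than 0.056 in size.

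*HAS3*, a synthase of shorter chains, had no difference past the threshold. It (ENSG00000103044, chromosome 16, 69105653 to 69118719, plus strand) had 3.99, 3.73 and 3.49 CPM in SC cells at 0.77 cP, 3.41, 3.21 and 3.57 CPM in SC cells at 8 cP, and 5.14, 3.25 and 3.23 CPM in shTRPV4 cells at 8 cP. Replicate 1 of the shTRPV4 cells was the highest of all, and the other 2 were among the lowest. Its fold change on the log2 scale was -0.14 with viscosity (SE 0.152, edgeR FDR = 0.571) and 0.19 with the knockdown (SE 0.151, edgeR FDR = 0.416), and without that replicate the latter turned to -0.069. The combined comparison gave 0.06 (SE 0.151, edgeR FDR = 0.801), or -0.21 without it. The third synthase, *HAS1*, was not a member and was too low to test, with 9 to 27 counts in SC cells at 0.77 cP, 3 to 6 in SC cells at 8 cP and 4 to 9 in shTRPV4 cells at 8 cP.

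**Figure D3:**
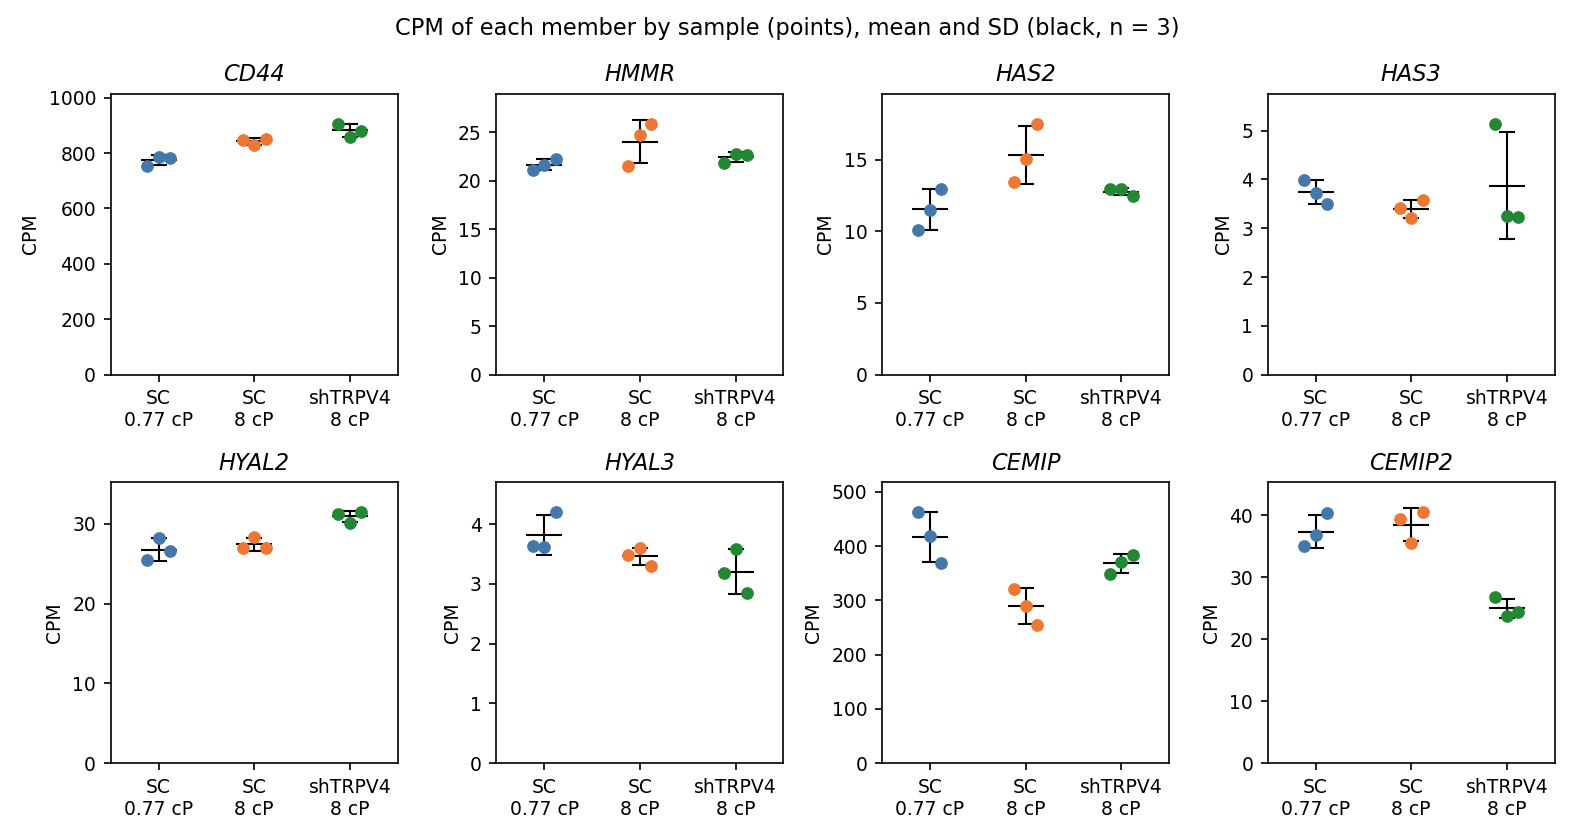
CPM of each member by sample (points; each panel has its own axis from 0), with the group mean and SD in black (n = 3). *CEMIP* is lowest in SC cells at 8 cP, *CEMIP2* is lowest in shTRPV4 cells, and 1 shTRPV4 sample of *HAS3* stands above the other 8.

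*CEMIP*, a secreted or membrane-associated protein needed for hyaluronan depolymerization in several cell types, was the second most abundant member and fell with viscosity. It (ENSG00000103888, chromosome 15, 80779343 to 80951776, plus strand) had 463, 418 and 369.5 CPM in SC cells at 0.77 cP, 322, 289 and 255 CPM in SC cells at 8 cP, and 348, 371 and 384 CPM in shTRPV4 cells at 8 cP. The SC samples at 8 cP lay below all other samples, while the shTRPV4 samples overlapped with SC cells at 0.77 cP. Its log2 fold change with viscosity was -0.53, a fall from 417 ± 46.5 to 289 ± 33.1 CPM (SD, n = 3; SE 0.081, edgeR FDR = 0.000738). With the knockdown it was 0.35 (SE 0.081, edgeR FDR = 0.0068), with 368 ± 18.1 CPM (SD, n = 3) in shTRPV4 cells. The combined comparison gave -0.18 (SE 0.081, edgeR FDR = 0.0891). The first and second of these share the SC samples at 8 cP, so their opposite signs are not independent, and no shTRPV4 group at the lower viscosity was analysed here, so that an effect of the hairpin on the response to viscosity was not tested. Both calls held in every alternative fit, with log2 fold changes of -0.61 to -0.44 and 0.27 to 0.43. The summed level of 5 fibroblast markers moved beside the viscosity result, from 43.0 ± 4.33 to 27.6 ± 2.28 CPM (SD, n = 3), and stood at 26.2 ± 2.25 CPM (SD, n = 3) in shTRPV4 cells. The one of these markers that passed the threshold with the knockdown, *LUM*, rose as *CEMIP* did (log2 fold change 1.09, edgeR FDR = 0.000917). It is a small part of the sum, at group means of 0.690 CPM in SC cells at 8 cP and 1.47 CPM in shTRPV4 cells. With the knockdown *COL1A1* and *COL1A2* had log2 fold changes of -0.18 and -0.20, and *PDGFRB* had 0.21, none past the threshold. These genes were named after their values were seen. The part of these markers in the changes of *CEMIP* was not tested.

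*CEMIP2*, a transmembrane relative of CEMIP also known as TMEM2, differed with the hairpin and not detectably with viscosity. It (ENSG00000135048, chromosome 9, 71683366 to 71816690, minus strand) had 35.0, 36.8 and 40.3 CPM in SC cells at 0.77 cP, 39.4, 35.5 and 40.5 CPM in SC cells at 8 cP, and 26.7, 23.8 and 24.4 CPM in shTRPV4 cells at 8 cP. The SC groups overlapped fully and all shTRPV4 samples lay below them. The knockdown log2 fold change was -0.62, to 0.649 of the SC level (SE 0.067, edgeR FDR = 1.18e-05). The combined comparison gave -0.58 (SE 0.067, edgeR FDR = 7.23e-06). With viscosity alone it was 0.04 (SE 0.066, edgeR FDR = 0.699). *CEMIP2* shared no exon bases with another gene, and both calls held in every alternative fit (-0.68 to -0.59 and -0.63 to -0.51).

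*HYAL2*, a hyaluronidase anchored to the cell surface, was slightly higher in shTRPV4 cells. It (ENSG00000068001, chromosome 3, 50317790 to 50322782, minus strand) had 25.5, 28.2 and 26.6 CPM in SC cells at 0.77 cP, 26.9, 28.4 and 27.0 CPM in SC cells at 8 cP, and 31.2, 30.1 and 31.5 CPM in shTRPV4 cells at 8 cP. All 3 shTRPV4 samples lay above both SC groups, which overlapped. The rise with the knockdown was 0.17 on the log2 scale, or 12.8% (SE 0.053, edgeR FDR = 0.0307), and this call was lost without a filter on low counts and when any 1 of the 6 samples compared was left out, with adjusted p up to 0.111. In the combined comparison it was 0.21 (SE 0.053, edgeR FDR = 0.0049), past the threshold in every alternative fit. *HYAL2* shares 509 exon bases on the same strand with *TUSC2*, whose log2 fold changes in these comparisons were 0.07 and 0.13, neither past the threshold.

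*HYAL3*, a less well characterized hyaluronidase relative, passed the threshold in no comparison. It (ENSG00000186792, chromosome 3, 50292831 to 50299405, minus strand) had 3.63, 3.62 and 4.20 CPM in SC cells at 0.77 cP, 3.48, 3.59 and 3.30 CPM in SC cells at 8 cP, and 3.18, 3.59 and 2.84 CPM in shTRPV4 cells at 8 cP. The SC samples at 0.77 cP lay above all the others, by very little. It had -0.14 on the log2 scale with viscosity (SE 0.110, edgeR FDR = 0.388) and -0.11 with the knockdown (SE 0.111, edgeR FDR = 0.527). Its lowest log2 fold change was -0.26, in the combined comparison (SE 0.111, edgeR FDR = 0.0751, and 0.0374 without replicate 2 of the shTRPV4 cells). It shares 232 exon bases with *NAA80* and 43 with *IFRD2* on the same strand, so reads of these genes may not be fully separated. *NAA80* rose by 0.29 on the log2 scale with the knockdown (edgeR FDR = 0.0351), where *HYAL3* had its -0.11.

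The remaining overlaps with annotated genes are on the opposite strand, and the strand setting of the counting is not given in the sources used here. For *CD44* these are *CD44-AS1* (84 bases, 22 to 46 counts per sample) and *CD44-DT* (70 bases, 18 to 42 counts), beside 50411 to 83884 counts of *CD44*. *HMMR* shares 113 bases with *HMMR-AS1*, which had at most 1 count, and *HAS3* shares 365 bases with each of *CHTF8* (99 to 151 counts) and *DERPC* (0 counts in all samples). *CEMIP* shares 224 bases with *MESD*, which had 4333 to 7595 counts and rose with viscosity by 0.14 on the log2 scale (edgeR FDR = 0.0436), the direction opposite to that of *CEMIP*. The gene also shares 71 bases with ENSG00000259546, which had 0 counts in all samples.

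Ratios within a sample put the members on a scale that does not depend on library scaling. The RPKM of *CEMIP* over that of *CEMIP2* was 16.0, 13.8 and 11.1 in SC cells at 0.77 cP, 9.91, 9.88 and 7.66 in SC cells at 8 cP, and 15.8, 19.0 and 19.1 in shTRPV4 cells at 8 cP. SC cells at 8 cP were the lowest group without overlap, and the means were 13.7 ± 2.45, 9.15 ± 1.29 and 18.0 ± 1.86 (SD, n = 3). The RPKM of *HAS2* over that of *CEMIP*, a synthase against a degrading protein, was 0.039, 0.050 and 0.063 in SC cells at 0.77 cP, 0.075, 0.093 and 0.12 in SC cells at 8 cP, and 0.067, 0.063 and 0.058 in shTRPV4 cells at 8 cP. Here SC cells at 8 cP were highest without overlap, and the other 2 groups overlapped. *HAS2* and *CEMIP* were themselves the members called with viscosity, so the ratio restates those changes and carries no test.

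**Figure D4:**
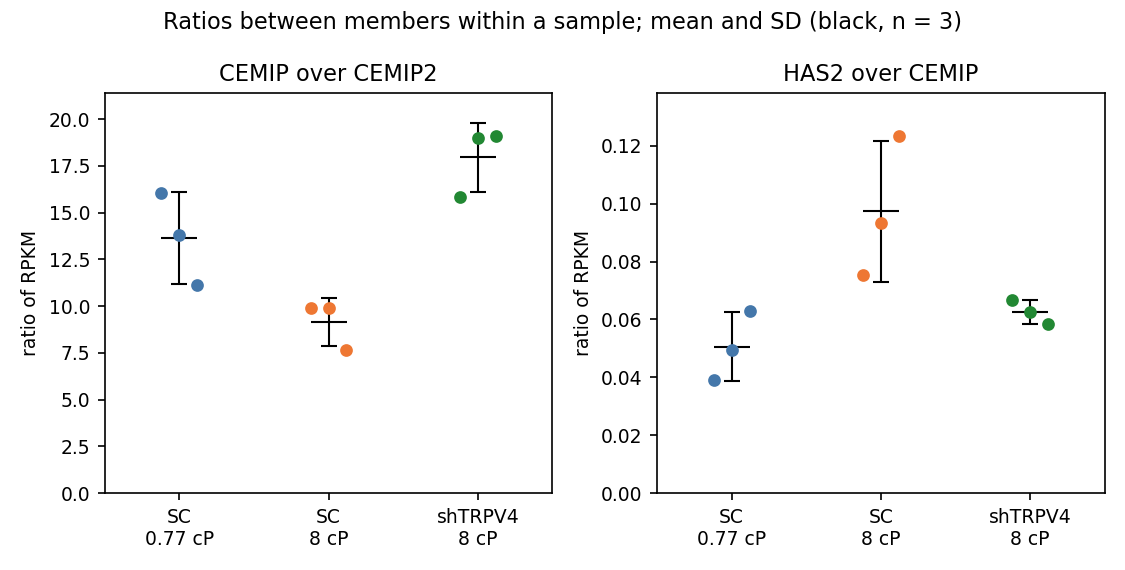
Ratio of RPKM between 2 members in each sample (points), with the group mean and SD in black (n = 3): *CEMIP* over *CEMIP2* at left and *HAS2* over *CEMIP* at right. SC cells at 8 cP are lowest at left (7.66 to 9.91) and highest at right.

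For the 5 members past the threshold in any comparison, the genes of most similar pattern were found by the root mean square difference of log2 CPM, each gene centred on its mean over the 9 samples, among 9415 genes that averaged at least 10 CPM. The nearest to *CEMIP* were *TNS4* (0.082), *RTKN* (0.092) and *FILIP1L* (0.10), where the median gene was at 0.28. Those nearest to *CEMIP2* were *ANTXR2* (0.053), *STK40* (0.071) and *TENT5C* (0.074), against a median of 0.31. For *HAS2* they were *NEGR1* (0.073), *ANKRD13A* (0.079) and *COA7* (0.082), against 0.22. *TRIM25*, *DCAF12* and *TMEM184C* came closest to *CD44* (0.018 to 0.020, median 0.12), and *GNB5*, *GATAD1* and *TBRG1* closest to *HYAL2* (0.027 to 0.028, median 0.13). *CD44* and *HYAL2* varied little, so small differences from them are a weak mark of likeness.

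Genes that supply the sugar precursors of hyaluronan differed in both directions. All 7 listed genes were tested, and with viscosity 2 rose and none fell: *GNPNAT1*, which acetylates glucosamine phosphate (log2 fold change 0.19, edgeR FDR = 0.0205, lost in 3 of 15 alternative fits, without replicate 1 of the SC cells at 0.77 cP or replicate 2 or 3 of those at 8 cP, with an FDR of up to 0.0973), and *UAP1*, which makes UDP-N-acetylglucosamine (0.19, edgeR FDR = 0.0178). With the knockdown, *GFPT2*, an entry enzyme of the hexosamine pathway, rose by 0.36 on the log2 scale from 38.2 to 49.1 CPM (edgeR FDR = 0.00131). *UGP2*, which makes UDP-glucose, fell by 0.18 from 124 to 109 CPM (edgeR FDR = 0.0119, and 0.0687 without replicate 2 of the SC cells at 8 cP). Of the 7, 3 rose and 3 fell in the combined comparison, *UGP2*, *UGDH* and *GFPT1* being those that fell. Over all genes 19.3% passed the threshold with viscosity, 20.0% with the knockdown and 42.4% in the combined comparison. With so few genes, nothing particular to this list or the next is read from its counts. The medians over the list were -0.028, -0.019 and 0.022 in the 3 comparisons. Of the other synthases and degrading enzymes, 5 of 7 could be tested. *HEXA*, a lysosomal hexosaminidase subunit, fell with viscosity (-0.18, edgeR FDR = 0.0405, lost in 7 of 15 alternative fits). No gene of this list passed the threshold with the knockdown by edgeR or DESeq2, and 0 of the 5 had an unadjusted p below 0.05, with *HYAL1*, a lysosomal hyaluronidase at below 0.3 CPM in each group mean, at -0.78 (edgeR FDR = 0.199). *HEXA* was the 1 gene of the list past it in the combined comparison, at -0.22.

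Other hyaluronan receptors and binding proteins included the gene of the smallest adjusted p among the lists. Of 21 listed, 9 were tested, and *LYVE1*, the lymphatic receptor, had at most 1 count in a sample. *TLR4*, an innate immune receptor that can respond to hyaluronan fragments, had 23.2, 23.0 and 24.0 CPM in SC cells at 0.77 cP, 25.4, 25.3 and 24.5 CPM in SC cells at 8 cP, and 11.8, 11.7 and 11.8 CPM in shTRPV4 cells at 8 cP. The shTRPV4 samples were thus at 0.469 of the SC level at 8 cP, a change of -1.09 on the log2 scale (SE 0.054, edgeR FDR = 4.94e-09). *PTX3*, which cross-links hyaluronan in the matrix of the ovulating follicle, rose by 0.48 in the same comparison, from 64.6 to 90.4 CPM (edgeR FDR = 7.62e-05). *VCAN*, a hyaluronan-binding proteoglycan at 18 to 37 counts in shTRPV4 samples and 50 to 89 in SC samples at 8 cP, fell by 1.11 (edgeR FDR = 0.0176), and *BCAN* rose on 2 to 16 counts per sample. With viscosity, *C1QBP*, a mitochondrial and surface protein that binds hyaluronan, rose by 0.18 (edgeR FDR = 0.0197, lost in 4 of 15 alternative fits, without replicate 1 or 2 of the SC cells at 0.77 cP or replicate 2 or 3 of those at 8 cP, with an FDR of up to 0.0917) and *BCAN* fell on 2 to 17 counts. In the combined comparison 3 genes rose (*TLR2*, *PTX3* and *C1QBP*) and 3 fell (*TLR4*, *VCAN* and *LAYN*). The shares over all genes were 19.3% with viscosity, 20.0% with the knockdown and 42.4% in the combined comparison, and nothing particular to this list is read from its counts. *VCAN*, *BCAN*, *TLR2* and *LAYN*, like *UAP1*, *UGDH* and *GFPT1* above, were named after their values were seen.

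Proteases, splicing factors and adaptors that act on CD44 differed in a few cases each. Of 13 genes tested from 15 listed, 1 rose with viscosity, *RDX* (radixin, 0.13, edgeR FDR = 0.0284). With the knockdown 3 rose and 1 fell. *MSN*, moesin, which links CD44 to actin, rose from 636 to 766 CPM (log2 fold change 0.27, SE 0.042, edgeR FDR = 0.00039). *SRGN*, serglycin, a proteoglycan ligand of CD44, rose by 0.27 with overlapping samples (edgeR FDR = 0.0342, lost in 6 of 15 alternative fits). *MMP14*, a membrane protease that can cleave CD44, fell by 0.16 from 935 to 835 CPM (edgeR FDR = 0.0292, lost in 5 of 15). *ESRP2*, an epithelial splicing regulator, rose by 0.28 (edgeR FDR = 0.0483). *ESRP1*, its paralogue, had at most 8 counts in a sample and *SPP1*, osteopontin, at most 4, so neither was tested. In the combined comparison, *MSN*, *SRGN* and *HNRNPM* rose and *MMP14* and *ADAM17* fell. Beside these counts, 19.3% of all genes passed the threshold with viscosity, 20.0% with the knockdown and 42.4% in the combined comparison. *RDX*, *ESRP2*, *HNRNPM* and *ADAM17* were named after their values were seen.

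Of 14 genes of G2 and mitosis and partners of HMMR at the spindle, all tested, 8 rose with viscosity. None fell, and 6 did not pass the threshold. Of all genes tested, low counts included, 9.57% rose, while each gene of the list had group means of at least 46.7 CPM. The list was chosen with earlier results of these data known, so its count beside that share carries no test. The list had a median log2 fold change of 0.19, beside -0.0065 over all genes. *CCNA2*, cyclin A, rose from 202 to 252 CPM (0.31, SE 0.049, edgeR FDR = 0.000759). *BRCA1*, whose product regulates HMMR in mammary cells, rose from 46.7 to 58.8 CPM (0.33, SE 0.066, edgeR FDR = 0.00379), and *BUB1*, a spindle checkpoint kinase, by 0.21 (edgeR FDR = 0.0261, lost in 3 of 15 alternative fits: without replicate 1 or 2 of the SC cells at 0.77 cP or replicate 3 of those at 8 cP, with an FDR of up to 0.127). With the knockdown only *BRCA1* of the list passed the threshold, with a further rise of 0.30 to 72.3 CPM (edgeR FDR = 0.00456), and the median was 0.00012. In the combined comparison 9 of 14 rose and none fell. The summed level of the list was 3212 to 3554 CPM in SC cells at 0.77 cP, 3733 to 4027 CPM in SC cells at 8 cP and 3712 to 4050 CPM in shTRPV4 cells. *HMMR* itself had 0.15 with viscosity, short of the threshold.

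**Figure D5:**
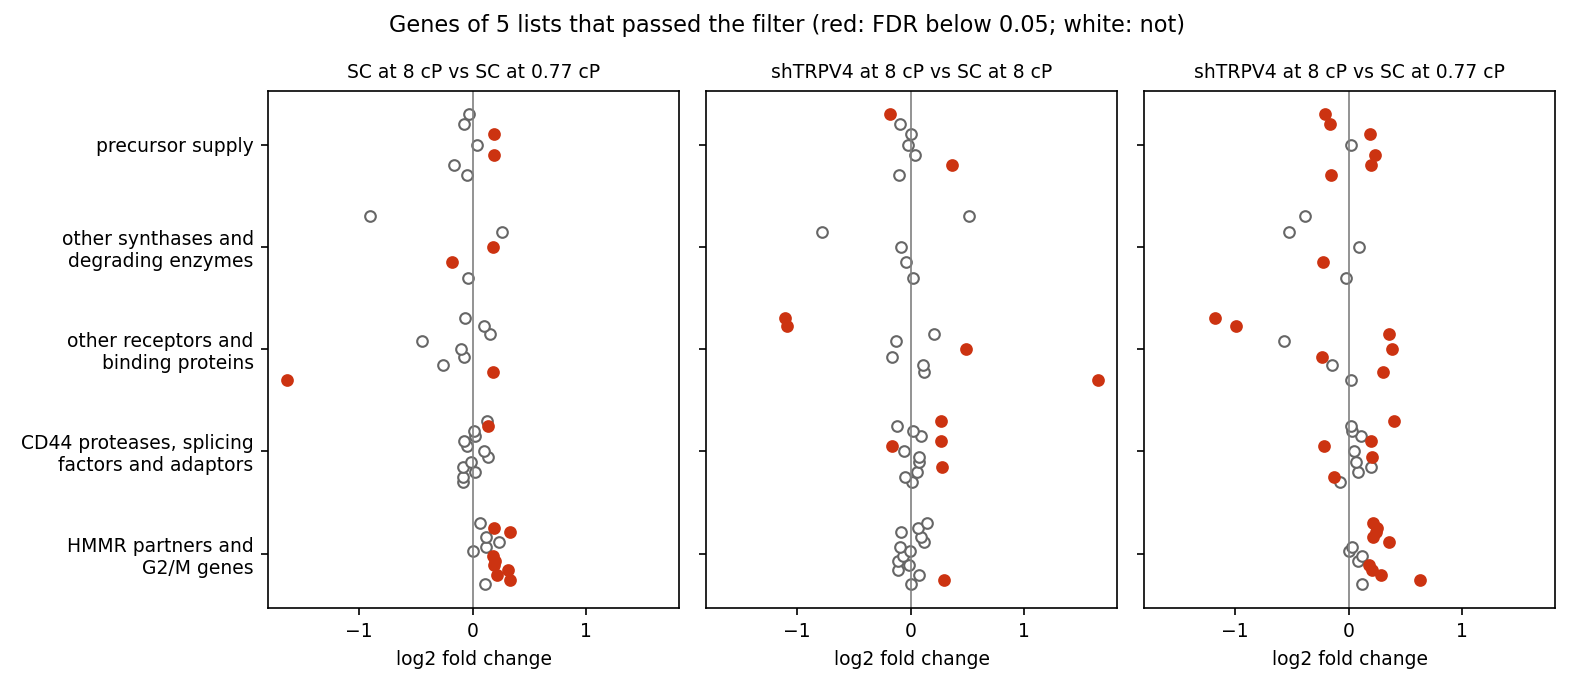
Log2 fold change of each tested gene of 5 lists (rows) in 3 comparisons (panels), with red points at an FDR below 0.05 and white points otherwise; the height of a point within a row has no meaning. The G2/M genes lie above 0 in the left panel, and the largest falls in the middle panel are *VCAN* and *TLR4*.

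The summed markers of each other cell type were far below those of the line (5102 to 5940 CPM), and some of these markers differed between the groups. Among all genes, 19.3% passed the threshold with viscosity, 20.0% with the knockdown and 42.4% in the combined comparison. Of 5 fibroblast markers 4 were tested. With viscosity 3 fell and none rose, with the knockdown 1 rose and none fell, and in the combined comparison 1 rose and 3 fell. The one that rose was *LUM*, lumican, at 0.766, 0.690 and 1.47 CPM in the 3 group means (log2 fold change 1.09 with the knockdown, edgeR FDR = 0.000917, and 0.96 in the combined comparison, edgeR FDR = 0.000855), named after its values were seen. The summed level of the fibroblast markers was 38.7 to 47.3 CPM in SC cells at 0.77 cP, 25.1 to 29.6 CPM in SC cells at 8 cP and 23.7 to 28.0 CPM in shTRPV4 cells, mostly from *COL1A2*, while the defining *DCN* had at most 2 counts. Of 4 endothelial markers 3 were tested and 1 fell with viscosity and 1 with the hairpin, with sums of 7.63 to 9.99, 6.55 to 6.91 and 3.87 to 4.75 CPM and at most 1 count of *CDH5*. Of 5 leukocyte markers 3 were tested and 1 fell in each of those comparisons, with sums of 5.83 to 6.81, 4.23 to 5.00 and 3.22 to 4.37 CPM and at most 17 counts of *PTPRC*. Of 5 luminal markers 2 were tested and neither differed past the threshold, with sums between 108 and 115 CPM. These sums came mostly from *ERBB2* and were above the CPM of every member but *CD44* and *CEMIP*. The line's own markers differed too, 1 of 7 rising and 4 falling with viscosity and 2 rising and 2 falling with the hairpin. Their part in the changes of *HAS2*, *CEMIP*, *CEMIP2* and *HYAL2* was not tested.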

How the data were processed

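RNA was sequenced for 9 samples of MDA-MB-231 cells, 3 in each of 3 groups taken from the sample titles. As the methods and labels describe, strand-specific poly(A) libraries were mapped to GRCh38.p13 with HISAT2 2.2.1, and exon reads were summed per Ensembl gene with HTSeq 0.13.5. The authors deposited these as raw counts per gene, without normalization, for 60664 genes, of which 60463 were matched to a symbol by GENCODE release 44. The methods speak of independent biological replicas in general, but neither they nor the labels say whether these RNA samples came from separate cultures, so p-values measure the spread between these samples, which may be technical.

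Counts were analysed in R 4.3.3 with edgeR 4.0.16 (TMM scaling, filterByExpr, quasi-likelihood test, 1 coefficient per group, all 9 samples; 18264 genes; common biological coefficient of variation 0.0633) and Benjamini-Hochberg adjustment over all genes tested, with a threshold of 0.05. CPM are TMM-scaled. Depth was 64571681 to 103518036 counts per sample, and counts carry no molecular identifiers. The scripts were tested on simulated data. Deviations from the group means were compared between samples of the same number to see whether numbers pair samples.

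Alternatives were DESeq2 1.42.0 (own size factors), scaling by upper quartile, a test without filter, a minimum of 10 counts per sample, a fit of only the 6 samples compared, the replicate number as a block, and leaving out each sample. Running them for all genes, the other lists, *TRPV4* and named list genes was chosen after seeing the data. The members and lists were chosen with earlier results of these data known. Named genes are the 8 members, *TRPV4*, the 3 genes of each list with the smallest adjusted p over the comparisons, and the 3 genes most similar to each called member, with exceptions stated, and some list genes are not reported here. Promoter sequences are RefSeq's (GRCh38.p14). Protein sequences were not used here.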

Additional observations from a re-analysis of the deposited data

How the results depend on the processing

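Of 24 results for the members (8 genes in 3 comparisons), 15 kept their direction and their side of the threshold in all 15 alternative fits, and 6 of the 8 calls were never lost. The calls that were lost in some fits were *HAS2* with viscosity and *HYAL2* with the knockdown. The number of members called with viscosity was 2, and between 1 and 3 when single samples were left out. It was 1 without replicate 1 of the SC cells at 0.77 cP and without replicate 3 of the SC cells at 8 cP, where fewer samples entered the fit. In the other 2 comparisons 3 members were called, and leaving out single samples gave 2 to 4 and 3 to 4. Leave-one-out values that turned direction were those of results past no threshold. *HAS3* ranged from -0.069 to 0.31 on the log2 scale with the knockdown and from -0.21 to 0.17 in the combined comparison. With viscosity, *TRPV4* ranged from -0.33 to 0.27, *UGP2* from -0.048 to 0.015 and *HYAL1* from -0.076 to 0.47. The causes of these shifts were not tested.

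Over all genes, leaving out 1 sample gave 1409 to 4349, 2179 to 3836 and 6318 to 7705 called genes beside 3518, 3649 and 7752. No pairing of samples by replicate number was seen over all genes. Deviations of same-numbered samples correlated at -0.055 to 0.090 over 9 pairs, and those of different numbers at -0.106 to 0.115 over 18 pairs. With 3 samples in each group, this check cannot exclude a pairing. Among the members, *CEMIP* fell and *HAS2* rose from replicate 1 to replicate 3 in both SC groups. In shTRPV4 cells *CEMIP* rose in that order instead. Whether single genes follow the replicate number was not tested. With the replicate number as a block, 2, 4 and 3 members and 3475, 3607 and 7731 genes were called. The added member was *HAS2* with the knockdown. Each member had at least 232 counts in every sample, and counting error was not compared with the spread between samples, so depth may limit the precision of the members with the fewest counts, *HYAL3* and *HAS3*.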
